A study of Mus musculus with 12 samples.

Results

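The 37 genes described here encode antioxidant enzymes, the enzymes that make, recycle and use glutathione, the metallothioneins, and the regulators Nfe2l2 and Keap1. They were taken by gene symbol from a list of 37 names, and all 37 were found among the 24346 genes in the deposited tables. Expression was measured by RNA sequencing in 12 libraries from midbrain of C57BL/6 mice, in 4 groups of 3. The groups had received either saline or pre-formed fibrils of α-synuclein carrying the G51D variant, which is linked to familial Parkinson's disease, as injections into the nigra on both sides. Fibrils were given as 20 µg in a solution of 5 µg/µL, and cells were collected 7 or 12 weeks later. All 4 groups share the strain, the surgery and the hKO1 reporter, a fluorescent protein that marks dopaminergic neurons in this study. The labels used here give neither the promoter that drives hKO1 nor the animals' age, and they call the sorted material neural cells. Whether each replicate came from its own animal is not stated there either, and the p-values below therefore describe the spread between these samples, which may be technical.

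The libraries held 2506730 to 5533324 assigned fragments, the most being in saline replicate 3 at 7 weeks. Replicate 2 of synuclein at 12 weeks stood apart, with 17409 genes detected against 19960 to 21135 in the others. The sorted material also contained RNA of cells other than the marked neurons. Summed over 8 dopaminergic markers the level was 497.9 to 2342 CPM (deposited counts scaled to library size by TMM), none of the 8 being at 0, while 6 oligodendrocyte markers summed to 15540 to 41910 CPM and 6 endothelial markers to 6291 to 14350 CPM. Astrocyte markers summed to 155.8 to 299.1 CPM and microglia markers to 31.0 to 304 CPM. Most of the 37 genes are known from several of these cell types, and in such bulk samples a lower level can be fewer cells of a type or less RNA per cell, which cannot be told apart.

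Reactive oxygen species are removed in steps. Superoxide dismutases turn superoxide into hydrogen peroxide, which catalase, glutathione peroxidases and peroxiredoxins then reduce. Glutathione peroxidases draw on glutathione, most peroxiredoxins draw on thioredoxin, and both carriers are recharged at the cost of NADPH. Metallothioneins bind zinc and copper and also scavenge radicals. Many of these genes are targets of the transcription factor NRF2, encoded by Nfe2l2, which KEAP1 holds in check. Dopaminergic neurons of the substantia nigra are known for a high oxidative load, since dopamine itself oxidises readily and pacemaking taxes their mitochondria.

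Compared per transcript length, in FPKM, the 37 genes together made up 1.01% to 1.24% of all FPKM in each library. Mt1, a metallothionein made by many cells, had the highest mean level of the 37, 1190 FPKM over the 12 libraries. It was followed by Gpx4, the glutathione peroxidase that reduces lipid peroxides in membranes, at 692.7 FPKM, and by Gstp1, a glutathione transferase, at 688.3 FPKM. Gpx4 ranged from 590.4 to 859 FPKM and Gstp1 from 369 to 1205 FPKM, so the order of these neighbours is not separated by their spread. Gstm1 (502.8 FPKM), Prdx1 (490.3 FPKM) and Gpx1 (397 FPKM) came next and overlapped in range. The lowest level was that of Slc7a11, the cystine importer that feeds glutathione synthesis, with a mean of 2.92 FPKM and a range of 0.439 to 6.12 FPKM.

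By role, the cytosolic superoxide dismutase Sod1 was at a mean of 367 FPKM, the mitochondrial Sod2 at 22.9 FPKM and the secreted Sod3 at 10.1 FPKM. Sod1 lay above the other two in every library. Among enzymes that remove hydrogen peroxide, Cat, the peroxisomal catalase, was at 51.01 FPKM and the secreted Gpx3 at 16.8 FPKM. The cytosolic peroxiredoxins Prdx1 and Prdx2 (303.8 FPKM) stood above the mitochondrial Prdx3 (58.8 FPKM), the endoplasmic reticulum enzyme Prdx4 (56.8 FPKM), Prdx5 (137 FPKM) and Prdx6 (62.7 FPKM). Srxn1, which repairs over-oxidised peroxiredoxins, was at 19.1 FPKM.

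The thioredoxins Txn1, which is cytosolic, and Txn2, which is mitochondrial, were at means of 150.4 and 175 FPKM and overlapped. Their reductases Txnrd1 and Txnrd2 were at 14.1 and 6.40 FPKM, and the glutaredoxins Glrx and Glrx5, the second of which serves iron-sulfur cluster assembly in mitochondria, at 20.3 and 114 FPKM. For glutathione supply, the catalytic and modifier subunits of glutamate-cysteine ligase, Gclc and Gclm, were at 12.0 and 44.0 FPKM. Glutathione synthetase, Gss, was at 33.6 FPKM and glutathione reductase, Gsr, at 16.9 FPKM. The transferases Gsta4 and Gstm5 were at 264 and 223 FPKM.

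Heme oxygenases open heme to biliverdin, iron and carbon monoxide. The constitutive Hmox2 was at a mean of 94.4 FPKM and the stress-inducible Hmox1 at 11.1 FPKM, Hmox2 being the higher in every library. The quinone reductase Nqo1, a classical NRF2 target, was at 6.31 FPKM. Mt2 was at 202 FPKM and Mt3, the metallothionein best known from brain, at 150.5 FPKM, and their ranges overlapped. Nfe2l2 and Keap1 were at 34.9 and 27.8 FPKM.

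**Figure D1:**
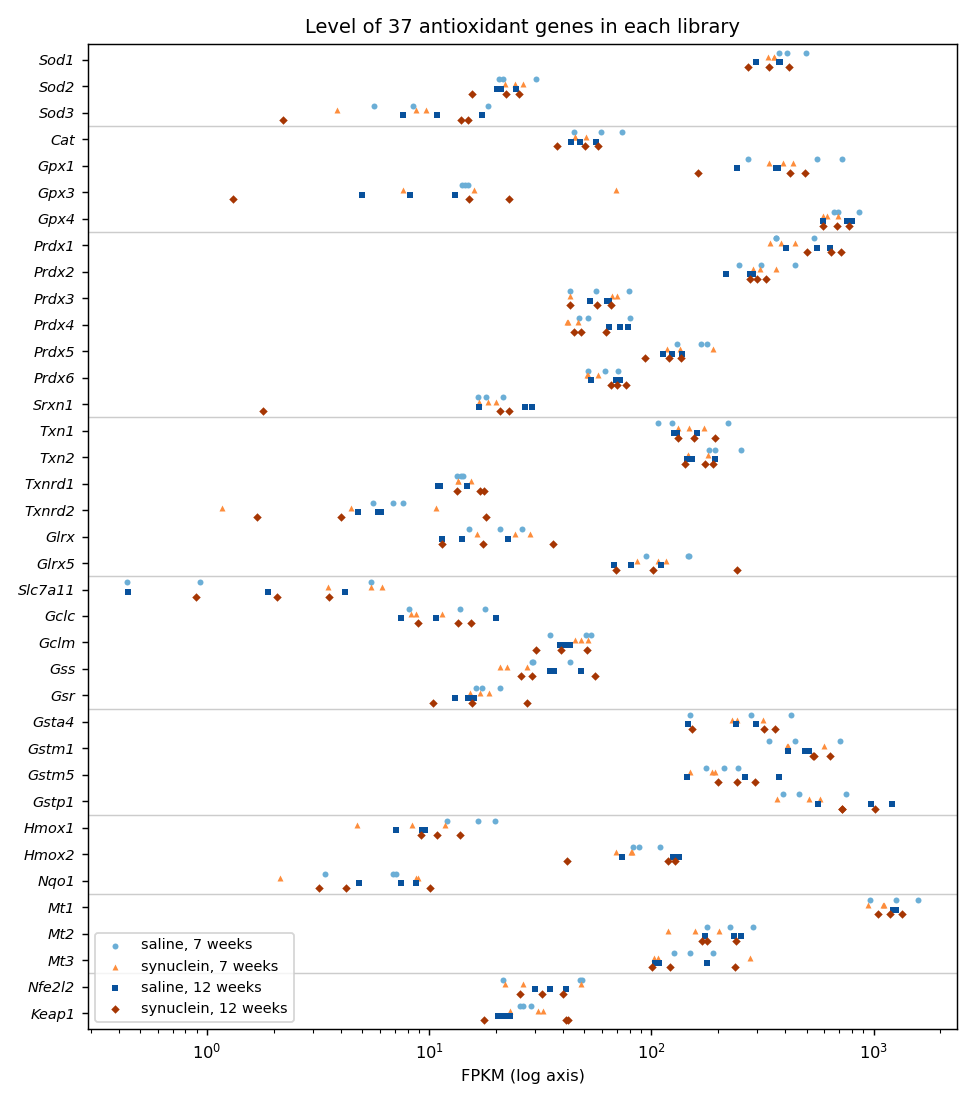
Level of each of the 37 genes in FPKM (horizontal, log axis), 1 point per library, with colour and shape marking the 4 groups and grey lines separating the roles. Mt1 lies highest and Slc7a11 lowest, and for most genes the points of the 4 groups are mixed.

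The genes differed widely in how steady they were across the 12 libraries. On the CPM scale the highest library was 1.48 times the lowest for Prdx6, 1.502 times for Txnrd1, 1.52 times for Gpx4 and 1.69 times for Mt1. At the other end the ratio was 56.2 for Gpx3, 17.0 for Srxn1, 15.7 for Txnrd2, 14.3 for Slc7a11 and 8.49 for Sod3. Those 5 genes were singled out after their values were seen, and their fragments ranged from 6 to 310 for Gpx3 and from 12 to 250 for Slc7a11. Gpx3 was at 95.2 CPM in synuclein replicate 1 at 7 weeks and at 1.69 CPM in synuclein replicate 1 at 12 weeks, with the other 10 libraries between 6.89 and 29.9 CPM. Srxn1 was at 4.66 CPM in synuclein replicate 2 at 12 weeks and between 44.9 and 79.5 CPM in the other 11 libraries.

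Single libraries were the extreme for several of the 37 genes at once. Saline replicate 3 at 7 weeks had the highest CPM for 15 of 37, among them Sod1, Gpx1, Gpx4, Txn2, Mt1 and Mt2. It was highest for 9.12% of all 17380 genes tested and for 26.9% of the 2158 genes at or above 100 CPM. Synuclein replicate 2 at 12 weeks was highest for 8 of 37 and lowest for 8 of 37, against 15.1% and 25% of all genes tested. Of genes at or above 100 CPM it was highest for 17.2% and lowest for 6.72%. Synuclein replicate 1 at 12 weeks was lowest for 9 of 37, against 11.8% of all genes tested and 12.8% of genes at or above 100 CPM.

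**Figure D2:**
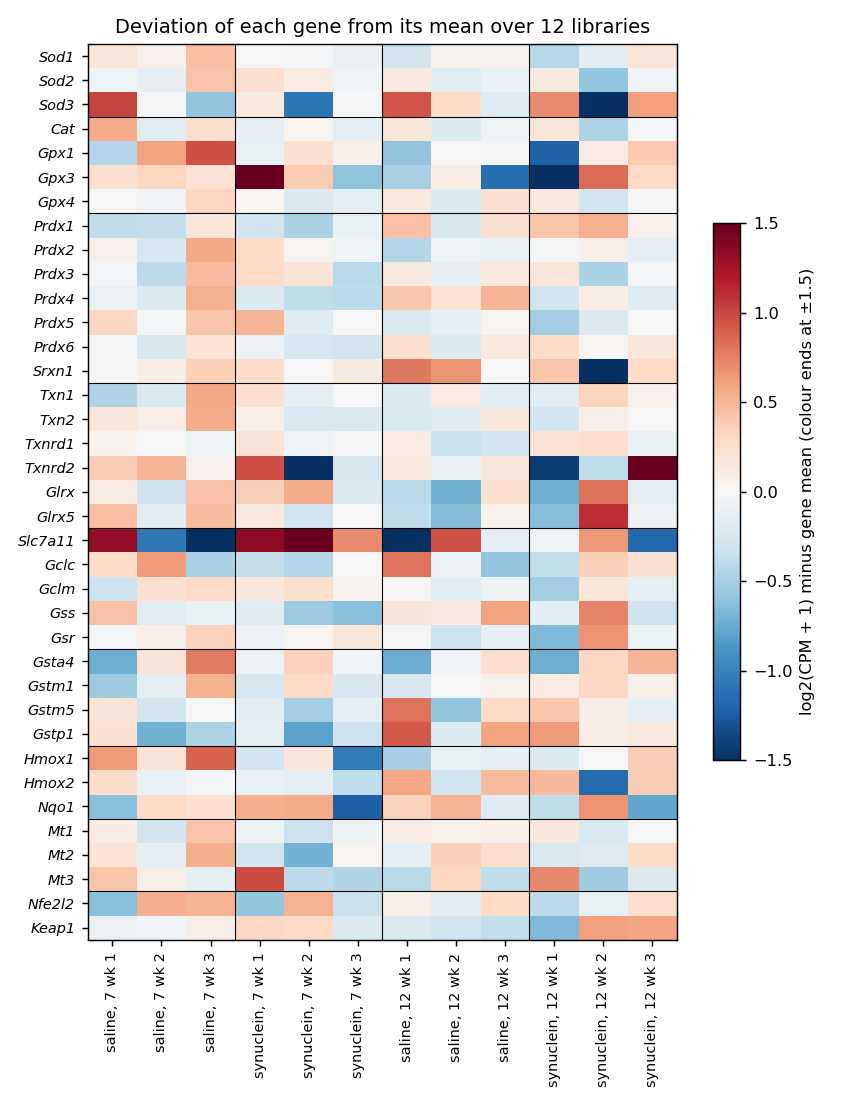
Deviation of each of the 37 genes (rows) from its own mean over the 12 libraries (columns), as log2(CPM + 1), red above and blue below the mean, with colours ending at 1.5 log2 units. Saline replicate 3 at 7 weeks is red for most rows, and the strongest colours belong to Gpx3, Srxn1, Txnrd2, Slc7a11 and Sod3.

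The first comparison asked what the fibrils did to these genes 7 weeks after injection. None of the 37 passed the test (edgeR's quasi-likelihood test, adjusted p under 0.05 over 17380 genes, where 0% of all genes passed). At an unadjusted p under 0.05 the count was 0 of 37, against 1.64% of all genes. The folds of 11 genes were above 0 and those of 26 below, where 51.2% of all genes were above, with a median log2 fold of −0.14, beside 0.01 over all genes tested. The size of that lean depended on single libraries: without saline replicate 3 the median was −0.07, with 21 below and 16 above, while without synuclein replicate 1 it was −0.29, with 32 below and 5 above.

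Hmox1 had the lowest fold of the 37 at 7 weeks. Its levels after saline were 23.5, 17.0 and 28.1 CPM, and after synuclein 11.9, 16.9 and 6.57 CPM. All synuclein libraries lay below all saline libraries, the nearest pair being 16.9 and 17.0 CPM. The log2 fold was −0.96 ± 0.48 (SE; edgeR unadjusted p = 0.0624, adjusted p = 1). In fragments Hmox1 was counted 62 to 143 times per saline library and 18 to 73 times per synuclein library. The synuclein library with the least Hmox1, replicate 3, also had the highest sum of microglia markers of all 12 libraries, 304 CPM, and the saline library with the most, replicate 3, the highest sum of endothelial markers, 14350 CPM. Whether these move Hmox1 was not tested.

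Mt2 was at 80.7, 63.8 and 102 CPM after saline and at 56.7, 42.4 and 72.0 CPM after synuclein at 7 weeks. The highest synuclein library lay above the lowest saline library, so the groups overlapped, with a log2 fold of −0.53 ± 0.28 (edgeR adjusted p = 1). Mt1 was at 432, 331 and 542 CPM after saline and at 379, 321 and 380.5 CPM after synuclein, a log2 fold of −0.27 ± 0.22. Mt3 was at 64.1, 50.8 and 42.8 CPM against 94.9, 36.1 and 34.6 CPM, a log2 fold of 0.07 ± 0.41, with synuclein replicate 1 far above the other two, and −0.57 without that library.

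Mt1, Mt2 and Mt3 lie next to each other on mouse chromosome 8 (GRCm38), Mt3 at 94152607 to 94154148, Mt2 at 94172618 to 94173567 and Mt1 at 94179089 to 94180327, all on the plus strand. The bases before the start of Mt2 are shown because this gene had the second smallest p of the 37 at 7 weeks and because metallothionein promoters are known for repeated metal response elements, which bind the zinc-sensing factor MTF1. Capitals mark matches on either strand to the metal response core (TGCACNC or TGCGCNC) and to the antioxidant response core that NRF2 binds with a small MAF partner (TGACNNNGC).
Mt2, chr8:94172368-94172617, plus strand, RefSeq, GRCm38.p6: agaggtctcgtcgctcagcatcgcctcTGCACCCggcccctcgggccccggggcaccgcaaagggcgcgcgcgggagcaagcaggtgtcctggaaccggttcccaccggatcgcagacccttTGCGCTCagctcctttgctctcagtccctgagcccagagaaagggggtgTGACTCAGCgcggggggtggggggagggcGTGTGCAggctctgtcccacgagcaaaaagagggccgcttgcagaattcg
The window holds 3 matches to the metal response core and 1 to the antioxidant response core, and no match overlaps another. Of 32851 mouse promoters of the same 250 bases, 21.4% held at least 1 metal response core and 1.26% held 3 or more, and 10.2% held TGACNNNGC. Among the 31 of 37 genes with a RefSeq promoter, 9 held a metal response core and 7 held TGACNNNGC (Gclm, Gstm5, Mt2, Nfe2l2, Prdx1, Sod1 and Txnrd1). Such matches are letters in a window and not measured binding.

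Txn2, mitochondrial thioredoxin, was at 214, 204 and 281 CPM after saline and at 202.5, 162 and 163 CPM after synuclein at 7 weeks. The groups did not overlap, by a margin of less than 2 CPM, and the log2 fold was −0.41 ± 0.23 (edgeR adjusted p = 1). Gss was at 78.4, 51.6 and 53.4 CPM against 50.6, 39.2 and 37.1 CPM, also without overlap, with a log2 fold of −0.53 ± 0.32 (edgeR adjusted p = 1). With Hmox1, Sod1 and Hmox2 this made 5 of 37 genes whose synuclein libraries all lay below the saline libraries, against 3.75% of all genes, and 0 of 37 with all libraries above, against 4.7%. The highest log2 folds were those of Slc7a11, 1.15 ± 0.76, and Gpx3, 1.11 ± 0.76. Slc7a11 was at 51.2, 8.94 and 4.02 CPM after saline and at 52.1, 57.5 and 33.1 CPM after synuclein, and its log2 fold was 2.87 without saline replicate 1 and 0.67 without saline replicate 3. Without synuclein replicate 1 the log2 fold of Gpx3 was −0.30.

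By role at 7 weeks, 2 of 3 superoxide dismutases, 3 of 4 catalase and glutathione peroxidase genes, 6 of 7 peroxiredoxin genes with Srxn1, and 4 of 4 glutathione transferases had log2 folds below 0. So did 3 of 6 thioredoxin and glutaredoxin genes, 3 of 5 genes of glutathione supply, 2 of 3 heme oxygenase and quinone reductase genes, 2 of 3 metallothioneins and 1 of the 2 regulators. Without saline replicate 3 the counts were 3 of 7 for the peroxiredoxins with Srxn1 and 2 of 4 for the transferases. None of these genes passed the test. Gpx4 was at 536, 519.5 and 668 CPM after saline and at 542, 458.5 and 480.0 CPM after synuclein, a log2 fold of −0.22 ± 0.22. Gpx1, the abundant cytosolic glutathione peroxidase, was at 236, 488 and 626 CPM against 296, 375 and 339 CPM, a log2 fold of −0.42 ± 0.36, and −0.09 without saline replicate 3. Its saline libraries spanned the synuclein ones.

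At 12 weeks the fibril comparison again gave 0 of 37 past the test, with 0% of all genes past it, and 0 of 37 at an unadjusted p under 0.05, where 5.57% of all genes lay. The folds of 17 genes were above 0 and those of 20 below, where 47.3% of all genes were above, with a median log2 fold of −0.06 beside −0.04 over all genes tested. Without both replicates 1 and 2 of synuclein, which leaves 1 library in that group whose spread is assumed to be that of the others, the median was 0.09, with 24 above and 13 below. Over 23 alternatives it ranged from −0.15 to 0.09.

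Keap1, the adaptor that marks NRF2 for degradation, had the smallest p of the 37 at 12 weeks. It was at 73.4, 69.2 and 66.0 CPM after saline and at 53.6, 132 and 129 CPM after synuclein. A pair of synuclein libraries lay above every saline library and the remaining one below all of them. The log2 fold was 0.59 ± 0.30 (edgeR unadjusted p = 0.0623, adjusted p = 0.894), and 0.96 without synuclein replicate 1. At 7 weeks Keap1 was at 80.4, 83.1 and 90.7 CPM after saline and at 106, 105 and 73.4 CPM after synuclein, with the same pattern of 2 libraries above and 1 below. Nfe2l2, whose product KEAP1 binds, was at 83.5, 70.4 and 97.05 CPM after saline and at 59.5, 72.4 and 93.5 CPM after synuclein, a log2 fold of −0.15 ± 0.34.

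Prdx4 was the 1 gene of 37 whose synuclein libraries all lay below the saline libraries at 12 weeks, against 6.67% of all genes. Its levels were 58.3, 51.01 and 62.6 CPM after saline and 35.3, 47.4 and 38.0 CPM after synuclein, and the log2 fold was −0.51 ± 0.29 (edgeR adjusted p = 0.902). Gstm1 was the 1 gene of 37 with all synuclein libraries above, against 4.01% of all genes, with a log2 fold of 0.23 ± 0.26. Glrx5 was at 61.2, 50.4 and 82.7 CPM after saline and at 51.1, 173 and 75.1 CPM after synuclein. Its log2 fold of 0.62 ± 0.36 (edgeR adjusted p = 0.902) rested on synuclein replicate 2, and without that library it was −0.01. Gpx4 was at 596, 460.2 and 624 CPM after saline and at 593.5, 439 and 524 CPM after synuclein at 12 weeks, with overlap.

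Of the metallothioneins at 12 weeks, Mt1 was at 432, 415 and 430.4 CPM after saline and at 452, 342 and 402 CPM after synuclein, a log2 fold of −0.10 ± 0.22. Mt2 was at 62.9, 89.5 and 84.1 CPM against 59.2, 60.6 and 84.4 CPM, a log2 fold of −0.21 ± 0.28. Mt3 was at 35.4, 59.8 and 36.5 CPM against 79.3, 32.6 and 40.8 CPM, a log2 fold of 0.21 ± 0.41, and −0.21 without synuclein replicate 1. All 3 overlapped between the groups. Hmox1 was at 10.15, 13.7 and 13.2 CPM after saline and at 12.7, 14.8 and 19.3 CPM after synuclein, a log2 fold of 0.34 ± 0.48.

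**Figure D3:**
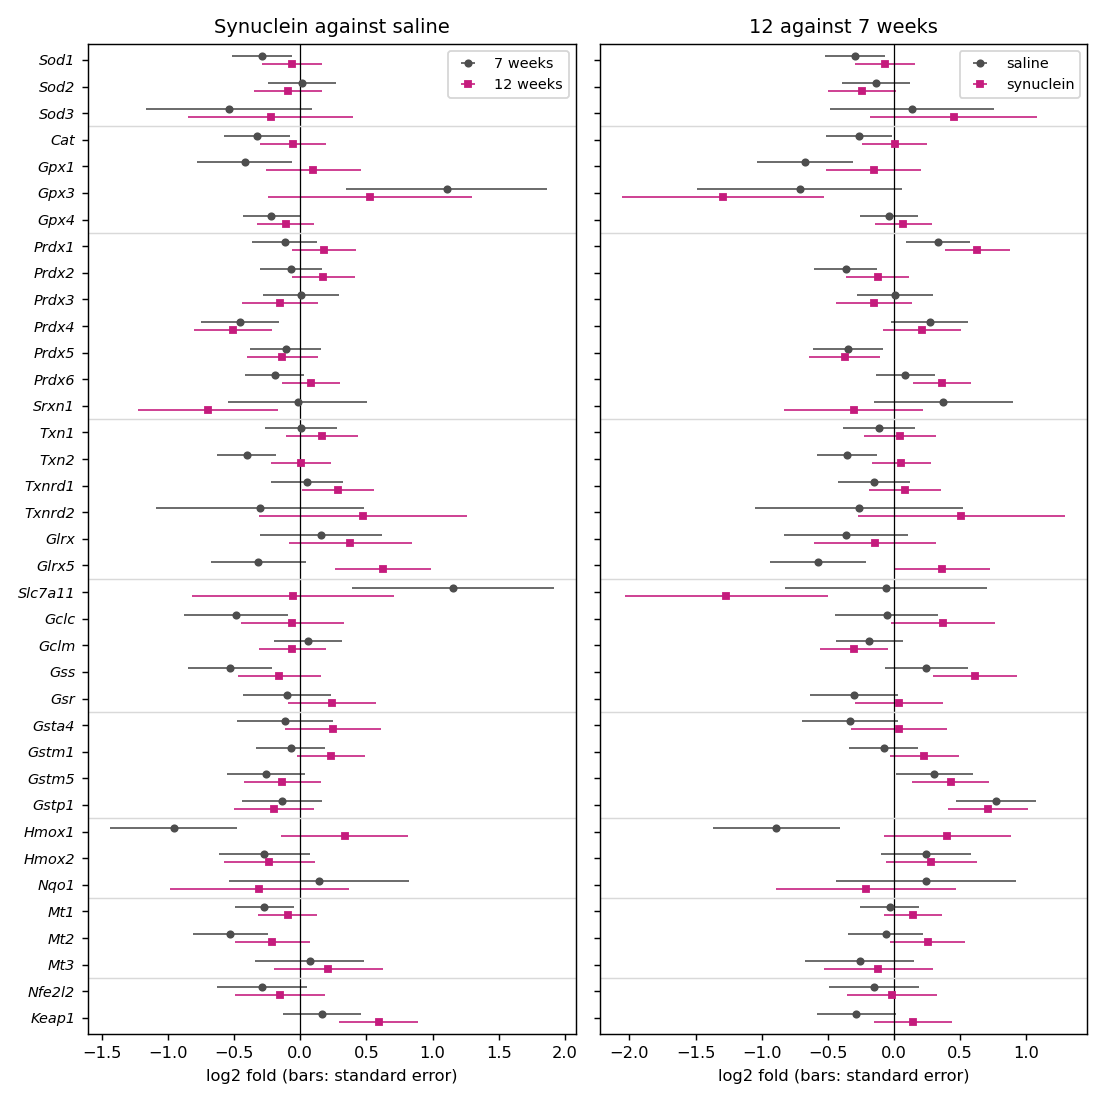
Log2 folds of the 37 genes with their standard errors, for synuclein against saline at 7 and 12 weeks (left) and for 12 against 7 weeks after saline and after synuclein (right), each from 3 against 3 libraries. The synuclein folds at 7 weeks lie mostly left of 0, Hmox1 changes side between the times, and Gstp1 lies right of 0 in both comparisons of 12 with 7 weeks.

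Whether the fibril effect differed between 12 and 7 weeks was tested as the difference of the 2 effects. None of 37 genes passed (0% of all genes did), and 0 of 37 had an unadjusted p under 0.05, against 4.49% of all genes. The median difference was 0.22 on the log2 scale, beside −0.05 over all genes tested, and 27 genes lay above and 10 below 0, where 47.4% of all genes lay above. Without saline replicate 3 at 7 weeks the median difference was 0.09, with 21 above and 16 below, and with upper-quartile scaling it was 0.08, with 23 above and 14 below, where the median over all genes moved to −0.18. Without saline replicate 2 at 7 weeks it was 0.37, with 32 above and 5 below. The smallest p values belonged to Hmox1 (1.29 ± 0.68), Glrx5 (0.94 ± 0.51) and Txn2 (0.41 ± 0.32), each with an edgeR adjusted p of 0.952. Glrx5 was at 109.3, 70.7 and 110 CPM after saline and at 88.2, 64.7 and 80.0 CPM after synuclein at 7 weeks, and its difference was 0.33 without synuclein replicate 2 at 12 weeks. Txn2 was at 163, 169 and 216 CPM after saline and at 156, 201.3 and 192 CPM after synuclein at 12 weeks. Both overlapped between the groups at those times.

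The second question was how the genes differed between 12 and 7 weeks. After saline, 0 of 37 passed the test, with 0% of all genes past it, and 1 of 37, Gstp1, had an unadjusted p under 0.05, against 7.42% of all genes. The median log2 fold was −0.13 beside 0.01 over all genes tested, with 26 below and 11 above 0, where 51% of all genes were above, and without saline replicate 3 at 7 weeks it was −0.05, with 19 below and 18 above. With upper-quartile scaling it was −0.04, with 20 below and 17 above, where the median over all genes was 0.11, and over 23 alternatives it ranged from −0.21 to −0.04. The saline libraries at 7 weeks serve here and in the fibril comparison at 7 weeks, so the leans of these comparisons are not independent. Groups did not overlap for 5 of 37 genes on the lower side at 12 weeks (Hmox1, Sod1, Keap1, Gpx3 and Gsr), against 7.83% of all genes, and for 0 of 37 on the higher side, against 8.34%.

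From the levels given above, Hmox1 had a log2 fold of −0.89 ± 0.48 between 12 and 7 weeks after saline (edgeR adjusted p = 0.736). Gpx1 was at 213, 319 and 316 CPM in saline at 12 weeks, a log2 fold of −0.67 ± 0.36 (edgeR adjusted p = 0.734) against the 236, 488 and 626 CPM at 7 weeks. Its groups overlapped, since saline replicate 1 at 7 weeks lay below 2 of the 3 libraries at 12 weeks, and without saline replicate 3 at 7 weeks the log2 fold was −0.33. In synuclein at 12 weeks Gpx1 was at 138, 350.2 and 420.2 CPM. Endothelial markers summed to 8695 to 14350 CPM after saline at 7 weeks and to 6291 to 8099 CPM at 12 weeks. Their part in the fold of Gpx1 after saline was not tested.

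After synuclein, 0 of 37 passed the test between 12 and 7 weeks, with 0% of all genes past it, and 2 of 37, Prdx1 and Gstp1, had an unadjusted p under 0.05, against 7.58% of all genes. The median log2 fold was 0.06 beside −0.06 over all genes tested, with 23 above and 14 below 0, where 45.8% of all genes were above, and 19 above and 18 below with upper-quartile scaling. Without synuclein replicate 1 at 12 weeks the median was 0.22, and without synuclein replicate 1 at 7 weeks 0.18, each with 27 above and 10 below. All libraries at 12 weeks lay above those at 7 weeks for Prdx1, Gstp1, Prdx6 and Gstm5, 4 of 37 against 5.13% of all genes. They lay below for Slc7a11, 1 of 37 against 7.13%. Gss was at 51.1, 97.1 and 46.5 CPM at 12 weeks, a log2 fold of 0.62 ± 0.32 (edgeR adjusted p = 0.69), but 0.24 without replicate 2 and 0.14 without replicates 1 and 2 at 12 weeks.

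Over both treatments together, 145 genes (0.834%) passed the test between 12 and 7 weeks, 94 higher and 51 lower at 12 weeks, and 0 of the 37 were among them. Gstp1 and Prdx1 were the 2 of 37 with an unadjusted p under 0.05, against 9.82% of all genes. The median log2 fold of the 37 was −0.07, beside −0.03 over all genes tested, with 16 above and 21 below 0, where 47% of all genes were above, and over 22 alternatives the median ranged from −0.10 to 0.05, the highest being without saline replicate 3 at 7 weeks. Gss had the third smallest p, with 66.1, 63.3 and 88.2 CPM after saline at 12 weeks beside its levels given above, and a log2 fold of 0.43 ± 0.22 (edgeR adjusted p = 0.569), or 0.24 without synuclein replicate 2 at 12 weeks.

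Gstp1, the pi-class glutathione transferase, lies on chromosome 19 at 4035411 to 4037912, minus strand. Its levels at 7 weeks were 416, 217 and 257 CPM after saline and 321, 203.5 and 283 CPM after synuclein. At 12 weeks they were 674, 309 and 538 CPM after saline and 551, 382 and 392.5 CPM after synuclein. After synuclein every library at 12 weeks exceeded every library at 7 weeks, whereas after saline replicate 2 at 12 weeks lay below replicate 1 at 7 weeks.

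The log2 fold of Gstp1 was 0.77 ± 0.31 after saline (edgeR unadjusted p = 0.0208, adjusted p = 0.543) and 0.71 ± 0.31 after synuclein (adjusted p = 0.593), and the difference of these was −0.06 ± 0.43. Over both treatments it was 0.74 ± 0.22 (edgeR unadjusted p = 0.00287, adjusted p = 0.138). The call changed with the tool, with the replicate number as a block and with 1 library. DESeq2 gave 0.76 with an adjusted p of 0.0253, edgeR with the replicate block 0.74 with an adjusted p of 0.0124, and edgeR without saline replicate 2 at 12 weeks 0.89 with an adjusted p of 0.0435. Over all 22 alternatives the fold ranged from 0.65 to 0.91 and the adjusted p from 0.0124 to 0.492. The near-identical neighbour Gstp2 was counted at 4.33 to 23.2 CPM, and how the authors' counting split shared fragments is not known.

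The levels of Gstp1 were set beside the oligodendrocyte markers after its values were seen. The 6 oligodendrocyte markers (all found, none at 0 in any library) summed to 15540 to 24400 CPM after saline and 16370 to 19490 CPM after synuclein at 7 weeks. At 12 weeks they summed to 24590 to 41910 CPM after saline and 25660 to 37140 CPM after synuclein. The 3 libraries with the highest sums, replicates 1 and 3 of saline and replicate 1 of synuclein at 12 weeks, were also the 3 with the most Gstp1. The same 3 libraries were highest for Gstm5 and Hmox2, so for 3 of 37 genes, against 1.82% of all genes tested and 6.07% of genes at or above 100 CPM. Below these 3 libraries the order of Gstp1 did not follow the sums. Synuclein replicate 2 at 12 weeks had a sum of 31700 CPM and 382 CPM of Gstp1. Saline replicate 1 at 7 weeks had 24400 CPM and 416 CPM. The part of oligodendrocyte RNA in the difference of Gstp1 between 12 and 7 weeks was not tested. Replicate 1 had the most Gstp1 and replicate 2 the least in each of the 4 groups. Replicate 1 was highest in all 4 groups for 3 of 37 genes, against 2.89% of all genes tested. Replicate 2 was lowest in all 4 groups for 3 of 37 genes, against 1.88%.

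**Figure D4:**
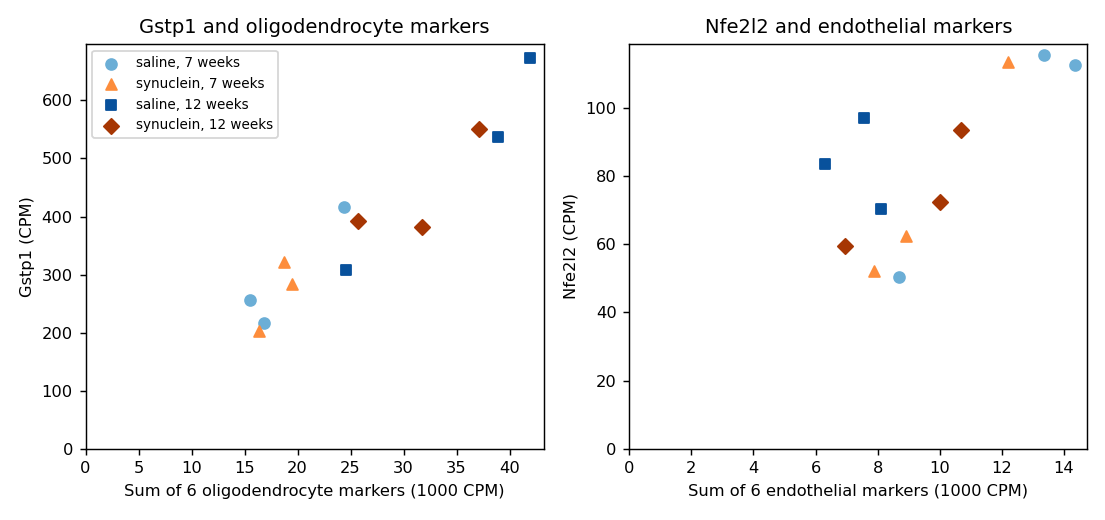
Left, Gstp1 (CPM) against the sum of 6 oligodendrocyte markers (axis in units of 1000 CPM), and right, Nfe2l2 (CPM) against the sum of 6 endothelial markers, 1 point per library with groups by colour and shape. The 3 libraries with the highest oligodendrocyte sums have the most Gstp1 (538 to 674 CPM), and the 3 with the highest endothelial sums the most Nfe2l2 (112.5 to 115 CPM).

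Prdx1, on chromosome 4 at 116684965 to 116700000 on the plus strand, encodes an abundant cytosolic peroxiredoxin and shares its locus in the deposited tables with 1 other gene. It was at 456, 460.4 and 675.5 CPM after saline and at 484, 429 and 553 CPM after synuclein at 7 weeks. At 12 weeks it was at 805, 505 and 697 CPM after saline and at 792, 859 and 622 CPM after synuclein. The log2 fold was 0.33 ± 0.24 after saline and 0.63 ± 0.24 after synuclein (edgeR unadjusted p = 0.0179, adjusted p = 0.535), with a difference of 0.30 ± 0.34. Over both treatments it was 0.48 ± 0.17 (edgeR unadjusted p = 0.0113, adjusted p = 0.274), and 0.34 without replicates 1 and 2 of synuclein at 12 weeks. Groups did not overlap after synuclein, where the lowest level at 12 weeks was 622 and the highest at 7 weeks 553 CPM.

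Gstp1 and Prdx1 had the smallest p of the 37 for 12 against 7 weeks over both treatments, and the bases before their RefSeq starts are shown up to the first exon given by GENCODE M21. The Gstp1 stretch runs on to complete a match that ends 8 bases inside that exon. Capitals mark the antioxidant response core on either strand. For Gstp1 they mark a second spelling, TGAGNNNGC, added after its promoter had been seen to hold no TGACNNNGC.
Gstp1, chr19:4037978-4038162, minus strand, RefSeq, GRCm38.p6: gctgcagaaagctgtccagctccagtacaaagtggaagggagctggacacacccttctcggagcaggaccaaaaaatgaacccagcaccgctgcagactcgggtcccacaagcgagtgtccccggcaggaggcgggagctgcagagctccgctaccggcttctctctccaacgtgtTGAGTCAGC
Prdx1, chr4:116685349-116685543, plus strand, RefSeq, GRCm38.p6: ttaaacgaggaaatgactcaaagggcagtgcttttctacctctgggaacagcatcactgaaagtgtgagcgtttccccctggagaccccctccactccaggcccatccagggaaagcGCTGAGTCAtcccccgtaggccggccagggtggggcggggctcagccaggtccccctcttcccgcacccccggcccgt
In the windows of 250 bases, TGAGNNNGC was found in 14.4% of all promoters and in 6 of the 31 genes (Gstm5, Gstp1, Mt3, Slc7a11, Srxn1 and Txn2). Here too the percentage is per promoter and the count per gene. Prdx1 holds the first spelling, which 10.2% of promoters hold.

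Over both times together, 0 of 37 passed the test for synuclein against saline, with 0% of all genes past it, and 1 of 37, Prdx4, had an unadjusted p under 0.05, against 2.48% of all genes. Prdx4 couples hydrogen peroxide reduction to disulfide formation in the endoplasmic reticulum. Its levels at 7 weeks were 41.2, 37.5 and 63.7 CPM after saline and 37.6, 33.2 and 33.1 CPM after synuclein, overlapping only through synuclein replicate 1 and saline replicate 2. With the levels at 12 weeks given above, the log2 fold was −0.48 ± 0.21 (edgeR unadjusted p = 0.0331, adjusted p = 1), and −0.33 without saline replicate 3 at 7 weeks. The fold was −0.45 ± 0.30 at 7 weeks, or −0.17 without saline replicate 3, and −0.51 ± 0.29 at 12 weeks, with a difference of −0.06 ± 0.42. Mt2 was next at −0.37 ± 0.20 and Keap1 at 0.38 ± 0.21, both with an edgeR adjusted p of 1. The median log2 fold of the 37 was −0.08, beside −0.01 over all genes tested, with 14 above and 23 below 0, where 48.3% of all genes were above, and over 22 alternatives it ranged from −0.16 to 0.01, the highest being without saline replicate 3 at 7 weeks.

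The regulator Nfe2l2 varied widely between libraries of the same group at 7 weeks. At 7 weeks it was at 50.4, 115 and 112.5 CPM after saline and at 52.1, 113 and 62.3 CPM after synuclein, and its log2 fold was −0.29 ± 0.34. The 3 libraries with the most Nfe2l2 were those with the highest sums of 6 endothelial markers (all found, none at 0), replicates 2 and 3 of saline and replicate 2 of synuclein at 7 weeks. This match held for 2 of 37 genes, Nfe2l2 and Gclm, against 1.65% of all genes tested and 6.86% of genes at or above 100 CPM, and was noticed after the values were seen. Gpx1, Prdx3, Glrx, Gsta4 and Gstm1 had 2 of these 3 libraries among their own highest 3. Sod3, Gpx4, Prdx1, Prdx4, Prdx6, Srxn1 and Mt1 had 2 of the 3 libraries with the highest oligodendrocyte sums among theirs. How many of all genes share 2 libraries in this way was not counted, so neither list sets these genes apart. The part of endothelial RNA was not tested. Gclm, whose product regulates glutamate-cysteine ligase, ranged from 57.8 to 104 CPM.

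Of the genes known as NRF2 targets, Nqo1 was low, at 2.86 to 13.4 CPM and 8 to 64 fragments per library, and its log2 fold was 0.14 ± 0.68 at 7 weeks and −0.31 ± 0.68 at 12 weeks. Srxn1 was at −0.02 ± 0.53 and −0.70 ± 0.53, Gclc at −0.48 ± 0.39 and −0.06 ± 0.39, and Txnrd1 at 0.05 ± 0.27 and 0.29 ± 0.27, in log2 folds at 7 and 12 weeks. The fold of Srxn1 at 12 weeks was −0.14 without synuclein replicate 2. These genes are only a part of the known targets and were picked by no stated rule. They did not share a direction, and each fold was within 2 standard errors of 0. Among other targets, Hmox1 was at −0.96 ± 0.48 and Slc7a11 at 1.15 ± 0.76 at 7 weeks. At 12 weeks Hmox1 was at 0.34 ± 0.48 and Slc7a11 at −0.05 ± 0.76. In the pairwise comparisons, standard errors of the log2 folds had a median of 0.30 over the 37 genes and 0.53 over all genes tested.

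A further 68 tested genes of the same pathways, among them other glutathione and thioredoxin genes, gave no call at an adjusted p under 0.05 in any of the 7 comparisons. Of all genes, 0.834% passed for 12 against 7 weeks over both treatments and 0% in each other comparison. Their median log2 fold for synuclein against saline was −0.12 at 7 weeks, with 40 below and 28 above 0, and −0.05 at 12 weeks, with 35 below and 33 above. At an unadjusted p under 0.05 the fibril comparison held 0 of 68 at 7 weeks, against 1.64% of all genes. At 12 weeks it held 1 higher and 2 lower, against 2.27% and 3.3% of all genes. The lowest p at 12 weeks was that of Idh2, a mitochondrial source of NADPH, with a log2 fold of −0.94 ± 0.29 (edgeR adjusted p = 0.887), then of Gstz1, −1.01 ± 0.41. At 7 weeks Blvrb, a biliverdin reductase, was at −0.64 ± 0.35 and Ggt5 at 0.91 ± 0.63.

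Between 12 and 7 weeks over both treatments, 3 of 68 were higher and 7 lower at an unadjusted p under 0.05, against 4.53% and 5.29% of all genes. Sesn1, a sestrin that is a p53 target, had a log2 fold of −0.83 ± 0.21 (edgeR adjusted p = 0.0714). It was followed by Slc1a1, the neuronal glutamate and cysteine transporter, at −0.65 ± 0.19 (edgeR adjusted p = 0.15). After saline the counts were 2 higher and 7 lower, against 3.49% and 3.92% of all genes, led by Slc1a1 at −0.92 ± 0.27. After synuclein they were 1 higher and 3 lower, against 3.31% and 4.28%, led by the thioredoxin-like gene Txnl1 at 0.60 ± 0.23. Dopaminergic markers summed to 634 to 2342 CPM at 7 weeks and to 497.9 to 1062 CPM at 12 weeks. The highest sums, in replicate 1 of synuclein and of saline at 7 weeks, came with 180 and 194 CPM of Slc1a1. Slc1a1 was highest in saline replicate 3 (344 CPM), synuclein replicate 2 (278 CPM) and saline replicate 2 (251 CPM) at 7 weeks. Those libraries also had the highest sums of endothelial markers. The part of either cell type in the fold of Slc1a1 was not tested.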

How the data were processed

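RNA from FACS-sorted cells of 12 midbrain samples was extracted with a Direct-zol kit, and cDNA was amplified with a SMARTer kit for very small amounts of RNA, per the labels' protocols. The submitters' processing notes name TopHat2 2.0.13, Bowtie2 2.2.3 and Cufflinks 2.2.1. Neither label nor header names a genome build, and coordinates are those of the deposited files. For 25 of the 37 genes both locus ends lay within 1000 bases of GENCODE M21 (GRCm38). The authors deposited estimated counts and FPKM per gene and library. The estimated counts are scaled by library: at least 98.8% of low values were whole multiples, within 0.02, of 1 step per library between 0.685 and 1.30, and dividing by it gave the fragments quoted. At 7 loci (Gpx4, Prdx1, Txnrd1, Txnrd2, Gstm5, Hmox2 and Nqo1) the files list other genes with the same coordinates, 48 of them for Gpx4, so fragments may be split between genes.

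Counts were rounded and tested in edgeR 4.0.16 (R 4.3.3) after filterByExpr, which kept 17380 genes and all 37 described here. The quasi-likelihood model had TMM scaling, 1 mean per group over 12 libraries and 8 residual degrees of freedom, with Benjamini-Hochberg adjustment over all genes and called at an adjusted p under 0.05. CPM values carry the TMM scaling and no prior count. Fold errors are standard errors, derived as the absolute log2 fold divided by the square root of the F statistic of its quasi-likelihood test. The common biological coefficient of variation was 46.6%. The 7 comparisons are synuclein against saline at each time and over both times, 12 against 7 weeks in each treatment and over both treatments, and the difference of the synuclein effects. The procedure was also run on simulated counts. Those held larger effects than most folds given here and no outlying library, so they say little about small folds or single libraries.

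The 37 genes, the other lists, the comparisons and the markers were chosen with earlier results of these data known. Values in every library are given for the 3 genes with the smallest p in each comparison, the metallothioneins and the 3 with the highest mean FPKM; Nfe2l2, Gpx3, Srxn1 and others named for their pattern were picked after their values were seen. Of 74 further pathway genes, 73 were found and 68 tested. Alternatives were other scalings and filters, DESeq2 1.42.0, limma 3.58.1 (voom, and log2(FPKM + 1)), recovered fragments, the replicate number as a block, only the groups compared, and leaving out each library.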

Additional observations from a re-analysis of the deposited data

How the results depend on the processing

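Alternatives numbered 23 for the pairwise comparisons and 22 for the other 3, where a fit of only the groups compared was not made. None of the 37 genes was called in 6 of the 7 comparisons. In the remaining one, 12 against 7 weeks over both treatments, Gstp1 was called under DESeq2, with the replicate block and without saline replicate 2 at 12 weeks, so 1 of 37, and 0 of 37 under all others. Counts over all genes moved more. For synuclein against saline at 12 weeks DESeq2 called 12 genes against 0 in edgeR, and over both times 3 against 0. For 12 against 7 weeks in saline the counts were 7 with no filter on low counts, 173 with DESeq2, 34 with the replicate block, 49 with only the groups compared and 14 without replicates 1 and 2 of synuclein at 12 weeks, against 0. In synuclein DESeq2 called 59. For the difference of the synuclein effects limma on log2(FPKM + 1) called 1. Over both treatments the count for 12 against 7 weeks was 449 with DESeq2, 246 with the replicate block, 0 with limma on log2(FPKM + 1) and 0 without replicates 1 and 2 of synuclein at 12 weeks, against 145. The cause was not tested.

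Leaving out 1 library at a time gave 0 to 1 gene for synuclein against saline at 7 weeks, at 12 weeks and over both times, 0 to 9 for 12 against 7 weeks in saline, 0 to 2 in synuclein, and 24 to 214 over both treatments, with 0 to 1 of the 37. The lowest, 24, was without saline replicate 3 at 7 weeks.

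The labels do not say what libraries of the same replicate number share. Over 10742 genes the deviations of same-numbered libraries from their group means correlated at −0.022 to 0.213, with 7 of 18 pairs over 0.1, so the numbers were not taken as pairs. Of the 6 pairs of replicates 1, however, 5 were over 0.1, and 8 of 12 libraries correlated best with one of their own number, a hint from the data and not from the design. Replicate 1 was the lowest in all 4 groups for 3.58% of all genes and for 13.6% of those at or above 100 CPM. It was the highest in all 4 groups, as for Gstp1, for 2.89% and 4.87%. With the replicate block the log2 fold of Gstp1 between 12 and 7 weeks over both treatments was 0.74, with an edgeR adjusted p of 0.0124. Nqo1, Gpx3, Slc7a11 and Txnrd2 had the lowest counts in any library, 6 to 12 fragments. By the mean over the libraries, Nqo1 (32.83) and Txnrd2 (41.42) were lowest. Gpx3 (83.75) and Slc7a11 (97.75) lay above Hmox1 (60.33) in mean fragments.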
